A study of Mus musculus with 18 samples.

Results

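AMP-activated protein kinase (AMPK) is the sensor of low cellular energy. The genes described here are those of its subunits (Prkaa1, Prkaa2, Prkab1, Prkab2, Prkag1 and Prkag2), of kinases that switch it on (Stk11 and Camkk2) and of partners of the Stk11 kinase (Strada and Cab39). They were chosen by name, as the 10 members of this pathway step among the 25266 genes listed for mouse liver, and all 10 were found. Liver RNA was sequenced from 18 male mice aged 8 weeks when the diets began. The groups were 4 FF and 4 LKO mice on a control diet (CD, 10% of calories as fat) and 5 FF and 5 LKO mice on a high-fat diet (HFD, 32.5% of calories as fat), each given for 16 weeks. FF mice carry floxed alleles of Ppp6r3, the gene of SAPS3, a regulatory subunit of protein phosphatase 6, on a C57BL/6 background. LKO mice carry the same floxed alleles and Cre recombinase under the albumin promoter (Alb-Cre), which is active in hepatocytes. Every group therefore has the floxed alleles, and no group is a wild type without them. The study asked how SAPS3 bears on AMPK in the liver under dietary excess, and the RNA answers here only how far the transcripts of AMPK and its kinases differed, not the amount or the phosphorylation of the proteins.

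AMPK is a trimer of a catalytic alpha subunit, a scaffolding beta subunit that also binds glycogen, and a gamma subunit that binds AMP, ADP and ATP. It becomes active when a threonine in the activation loop of alpha is phosphorylated, either by LKB1 (Stk11), which works in a complex with the pseudokinase STRAD and the scaffold MO25, or by the calcium-dependent kinase CaMKK2. Active AMPK restrains the synthesis of fatty acids and cholesterol and promotes the oxidation of fatty acids, and in the liver LKB1 is held to be its main upstream kinase.

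The site on which both upstream kinases act is written almost alike in the transcripts of both alpha subunits. The stretches below are coding sequence of the GENCODE M21 transcripts, 5′ to 3′ with 30 bases on each side of the codon of that threonine, which is in capitals. They are shown because this codon is the point where the members described below meet.
Prkaa1: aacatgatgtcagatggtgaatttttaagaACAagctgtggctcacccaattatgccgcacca
Prkaa2: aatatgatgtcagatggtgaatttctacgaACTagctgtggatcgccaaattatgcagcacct
In Prkaa1 the codon is number 183 of 559 in the open reading frame and lies in exon 5 of 9, at chr15:5169967-5169969 of GRCm38 (mm10) on the + strand. In Prkaa2 it is codon 172 of 552, also in exon 5 of 9, at chr4:105049381-105049383 on the - strand. The stretches share 54 of 63 bases and 12 of 21 codons, and all 21 codons give the same amino acids.

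Values are RPKM as deposited, that is, reads scaled for gene length and for sequencing depth. Fold changes are on the log2(RPKM + 1) scale, which understates the change of genes of low level, and a gene is said to have risen or fallen when its p-value from limma, adjusted by the Benjamini-Hochberg method over all 11090 genes tested, was under 0.05. A gene was tested when its mean over the 18 mice was at least 0.5 RPKM, which 9 of the 10 members were. Depth ran from 23408024 to 36953556 reads per library. Ppp6r3 itself ranged from 8.38 to 11.0 RPKM in FF CD, from 3.88 to 4.08 in LKO CD, from 7.55 to 8.82 in FF HFD and from 4.22 to 4.87 in LKO HFD, so it was lower in every LKO mouse than in every FF mouse (log2 fold change -1.04 under CD and -0.72 under HFD, limma adjusted p = 6.72e-07 and 7.14e-06). In whole liver, RNA that remains in LKO mice can come from hepatocytes or from other cells, and fewer cells of a type and less RNA per cell cannot be told apart. The 5 hepatocyte markers in the tables summed to 29912 to 47457 RPKM and the 4 skeletal muscle markers to at most 2.16. Under HFD, 1756 genes rose and 531 fell in FF mice, and 382 rose and 67 fell in LKO mice. With each mouse centred on its median these were 1143 and 1251 in FF mice, and 91 and 185 in LKO mice, so the balance of directions over all genes depends on the scaling. The 449 genes passed in LKO mice also rest on single mice, since 27 passed without LKO CD mouse 3, 34 without LKO HFD mouse 3 and 45 without LKO CD mouse 1. FF HFD mouse 3 had the lowest summed RPKM (312292, against 338566 to 397753 in the others).

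Levels of the subunits were first compared with each other, since RPKM is a level per length. Over the 18 mice, Prkag1 (gamma 1) and Cab39, the gene of MO25 alpha, were the most abundant members at means of 14.7 and 14.5 RPKM. Stk11 followed at 12.7 RPKM, Prkab1 (beta 1) at 8.49, Prkaa2 (alpha 2) at 7.51 and Prkag2 (gamma 2) at 6.70. Prkaa1 (alpha 1) at 2.64 RPKM, Camkk2 at 1.60, Strada at 0.909 and Prkab2 (beta 2) at 0.372 were the 4 lowest. Neighbours in this order overlapped in their ranges over mice, except that Prkag2 (4.41 to 8.28 RPKM) lay wholly above Prkaa1 (2.16 to 3.28 RPKM) and Strada (0.471 to 1.30 RPKM) above Prkab2 (0.218 to 0.465 RPKM).

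Per length, 1 isoform of each kind of subunit made up most of the RNA, and for gamma the larger isoform depends on that scale. Prkaa2 gave 73.7% ± 3.8 (SD, n = 18) of the summed alpha RPKM and ranged from 67.6% to 80.8% over the mice. Prkab2 gave 4.22% ± 0.83 of beta, which was almost all Prkab1. Prkag2 gave 31.4% ± 3.6 of gamma, the rest being Prkag1, and the third gamma gene, Prkag3, known from skeletal muscle, was at 0 to 0.0835 RPKM, or 0 to 7 reads. Counted in reads and not per length, Prkag2 gave 52.3% of gamma, so that it exceeded Prkag1, while Prkaa2 gave 83.1% of alpha and Prkab2 8.37% of beta.

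The mean share of Prkaa2 in alpha was lower under HFD in both genotypes. Prkaa2 made up 76.6% ± 3.4 (SD, n = 4) of alpha in FF CD and 71.1% ± 2.5 (n = 5) in FF HFD, with overlapping ranges of 72.7% to 80.8% and 68.7% to 74.5%. It made up 77.3% ± 1.2 in LKO CD and 71.3% ± 2.8 in LKO HFD, where the ranges of 75.5% to 78.1% and 67.6% to 75.4% did not overlap. These shares are a description and were not tested. The share of Prkag2 in gamma was 30.4% in FF CD, 30.5% in LKO CD, 34.2% in FF HFD and 30.1% in LKO HFD, all with ranges that overlapped.

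The partners of LKB1 have paralogs outside the 10 members, and these were abundant. Stradb, the gene of STRAD beta, was at 9.94 to 19.8 RPKM and gave 94.5% ± 1.3 (SD, n = 18) of the summed STRAD RPKM, against 0.471 to 1.30 RPKM for Strada. Cab39l, the gene of MO25 beta, was at 15.0 to 20.7 RPKM and gave 54.6% ± 2.0 of MO25. Camkk1, the paralog of Camkk2, was at 0.0105 to 0.0915 RPKM, or 1 to 12 reads. Of the 4 paralogs, Stradb and Cab39l were tested and neither passed in any comparison.

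**Figure D1:**
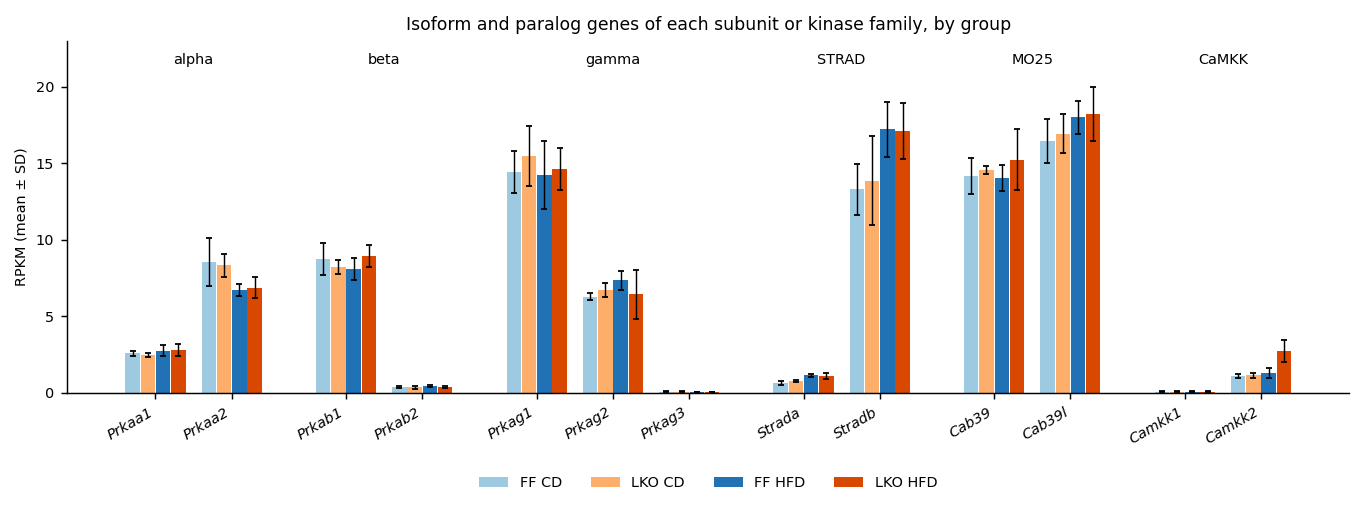
RPKM (vertical axis, mean and SD as whiskers) of the genes of each AMPK subunit, of STRAD, MO25 and CaMKK (horizontal axis), with 1 bar for each group of 4 (CD) or 5 (HFD) mice. Prkaa2 exceeds Prkaa1, Prkab1 exceeds Prkab2 and Stradb exceeds Strada in every group, while Prkag3 and Camkk1 are near 0.

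The first comparison asked what HFD did in FF mice. Of the 9 tested members, Prkaa2 fell, Strada rose and the other 7 did not pass the test. These are 2 of 9, beside 20.6% of all genes tested (limma, adjusted p), with 4.79% that fell and 15.8% that rose. Neither gene reached a fold of 1.5, the study's threshold, on the log2(RPKM + 1) scale, which 6.6% of all genes did. As a ratio of mean RPKM, Strada was 1.84 times as high under HFD. The median change of the 9 members was -0.01 on the log2 scale, and that of all genes tested 0.07.

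Prkaa2, the larger source of alpha RNA, was at 8.23, 7.36, 10.8 and 7.66 RPKM in the 4 FF CD mice and at 6.33, 7.17, 6.25, 6.75 and 7.05 RPKM in the 5 FF HFD mice. All FF HFD mice lay below all FF CD mice, by a narrow margin, and FF CD mouse 3 stood above the other three. The log2 fold change was -0.29 (SE 0.098, limma adjusted p = 0.0418). Without FF CD mouse 3 it was -0.18 (adjusted p = 0.179), and the call was also lost without any of FF CD mouse 1, LKO CD mice 1 and 4 and FF HFD mice 1 to 5 (adjusted p over the 18 mice left out in turn, 0.0292 to 0.179). It was lost as well in 4 of 10 other settings, namely no filter, equal sums, only the groups compared and the replicate number as a block (adjusted p over the 10, 0.00591 to 0.112). In LKO mice Prkaa2 was at 8.19, 9.06, 7.35 and 8.72 RPKM under CD and at 6.73, 7.26, 6.42, 7.86 and 6.05 RPKM under HFD. These groups overlapped, with a log2 fold change of -0.25 (SE 0.098, adjusted p = 0.146), and the difference between the genotypes in this change was 0.04 (SE 0.138, adjusted p = 0.905).

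Prkaa1, the other catalytic isoform, did not pass in either genotype. It ranged from 2.39 to 2.77 RPKM in FF CD and from 2.16 to 3.08 in FF HFD, and the log2 fold change was 0.07 with a 95% confidence interval from -0.11 to 0.24. In LKO mice the interval of its change under HFD ran from -0.05 to 0.30. Prkaa1 RNA was between 267 and 484 reads per mouse and Prkaa2 RNA between 1215 and 2167 reads.

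Strada encodes STRAD alpha, which binds LKB1 and activates it. It was at 0.539, 0.471, 0.638 and 0.791 RPKM in FF CD and at 1.09, 1.16, 1.09, 1.01 and 1.25 RPKM in FF HFD. The groups did not overlap, which was true of 3 of the 9 members and of 18.3% of all genes tested. The ratio of the mean RPKM was 1.84 and the log2 fold change 0.40 (SE 0.076, limma adjusted p = 0.00139). The call held without any 1 of the 18 mice (adjusted p up to 0.00645), and the level rests on 30 to 102 reads per mouse.

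In LKO mice Strada was at 0.663, 0.740, 0.817 and 0.722 RPKM under CD and at 1.24, 1.30, 1.01, 0.776 and 1.06 RPKM under HFD. LKO HFD mouse 4 lay within the range of the CD mice and the other 4 lay above it. The log2 fold change was 0.25 (SE 0.076, adjusted p = 0.0656), and 0.31 without LKO HFD mouse 4 (adjusted p = 0.0334). The difference from the change in FF mice was -0.15 (SE 0.107, adjusted p = 0.534). Exons of Strada overlap those of Ccdc47 on the same strand, so reads there cannot be assigned to 1 gene. Ccdc47 was at 22.7 to 30.3 RPKM and its log2 fold change under HFD in FF mice was 0.0045 (SE 0.0715, adjusted p = 0.973).

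The paralog Stradb, far more abundant, did not pass. It ranged from 11.2 to 14.9 RPKM in FF CD and from 14.7 to 19.8 in FF HFD, and from 9.94 to 16.5 in LKO CD and 15.3 to 19.3 in LKO HFD. Its log2 fold changes under HFD were 0.35 in FF mice (SE 0.126, adjusted p = 0.0563) and 0.30 in LKO mice (SE 0.126, adjusted p = 0.163). In FF mice the test was passed under 5 of 10 other settings, so the side of the threshold on which Stradb falls depends on the setting. Cab39l and Cab39, whose products stabilise the LKB1 complex, had intervals of -0.05 to 0.30 and -0.19 to 0.17 for the change under HFD in FF mice.

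**Figure D2:**
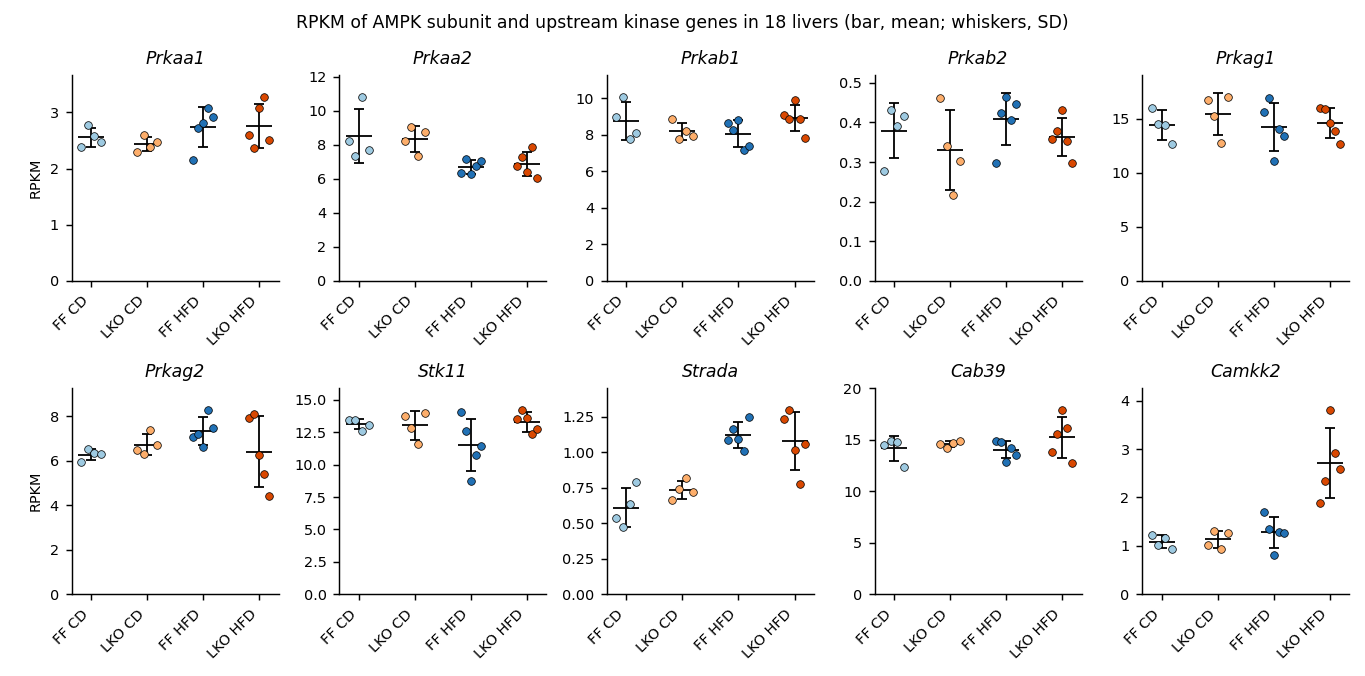
RPKM (vertical axis, from 0) of each of the 10 members in each mouse, by group (horizontal axis), with the mean as a bar and the SD as whiskers. Camkk2 is above every other mouse in all 5 LKO HFD mice, Strada is higher in all FF HFD than in all FF CD mice, and Prkag2 is most widely spread in LKO HFD.

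Among the members that did not pass under HFD in FF mice, log2 fold changes ran from -0.19 for Stk11 to 0.19 for Prkag2. Stk11 was at 13.4, 13.4, 12.6 and 13.0 RPKM in FF CD and at 14.1, 12.6, 8.75, 10.8 and 11.5 RPKM in FF HFD, with FF HFD mouse 3 the lowest of the 18. Its change of -0.19 (SE 0.099, adjusted p = 0.199) passed the test when each mouse was centred on its median (-0.28, adjusted p = 0.0197) or the values were quantile normalized (-0.27, adjusted p = 0.0138), the range over 10 other settings being 0.0138 to 0.302. Prkag2, one of the nucleotide-binding subunits, was at 5.92, 6.51, 6.36 and 6.29 RPKM in FF CD and at 7.05, 7.22, 6.61, 8.28 and 7.48 RPKM in FF HFD. Those groups did not overlap, but the change of 0.19 (SE 0.120) had an adjusted p of 0.275. Exons of Stk11 overlap those of Cbarp, and exons of Prkag2 those of 2 antisense genes. Exons of Prkag1, Prkab2 and the paralog Cab39l likewise overlap those of B130046B21Rik, Gm17651 and Cdadc1, each on the other strand.

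The second comparison, HFD against CD in LKO mice, held 1 call among the 9 members, Camkk2, which rose. That is 1 of 9, beside 4.05% of all genes tested (3.44% that rose). The third comparison, LKO against FF under CD, held none (0 of 9 by limma, 0 of 9 at an unadjusted p under 0.05 and 0 of 9 by voom on reads), beside 0.234% of all genes. There the members' log2 fold changes lay between -0.08 and 0.11, and their 95% confidence intervals between -0.27 and 0.35. The fourth, LKO against FF under HFD, held 1 call, again Camkk2, which was higher in LKO mice, beside 4.2% of all genes (2.1% that were higher). All comparisons that share a group share its mice, and so are not independent.

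**Figure D3:**
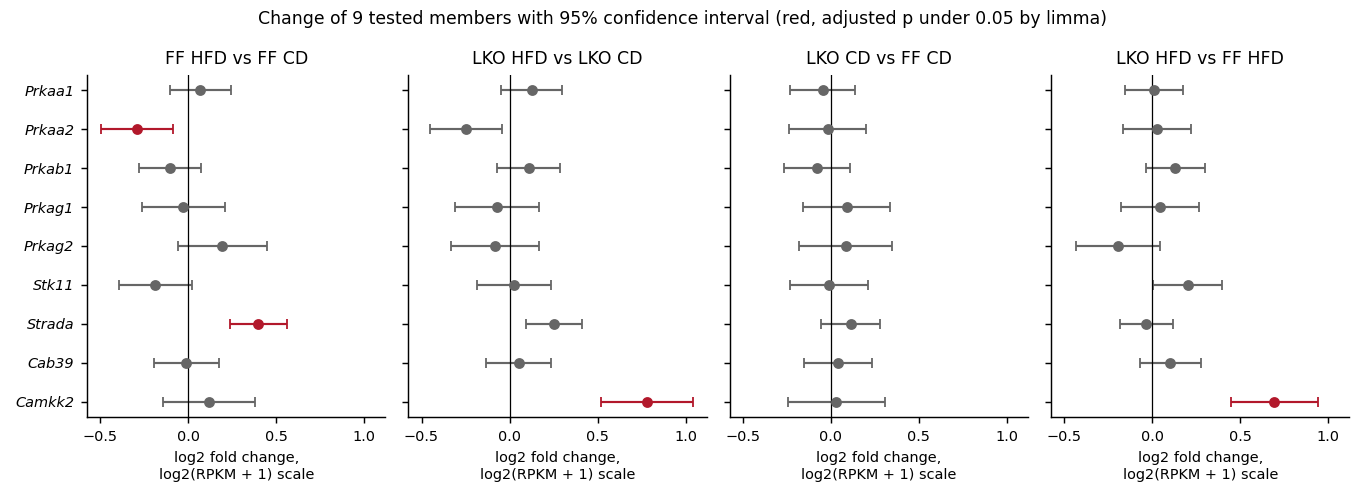
Log2 fold change on the log2(RPKM + 1) scale (horizontal axis) with its 95% confidence interval for the 9 tested members (vertical axis) in the 4 comparisons. Only Prkaa2 and Strada in FF mice under HFD and Camkk2 in both comparisons that involve LKO HFD mice are marked as past the threshold.

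Camkk2 encodes the calcium- and calmodulin-dependent kinase that phosphorylates AMPK independently of LKB1. Under CD it was at 1.22, 1.01, 1.17 and 0.935 RPKM in FF mice and at 1.03, 1.30, 0.941 and 1.26 RPKM in LKO mice. Under HFD it was at 1.70, 1.34, 0.803, 1.28 and 1.27 RPKM in FF mice and at 1.89, 2.35, 3.81, 2.92 and 2.58 RPKM in LKO mice. All 5 LKO HFD mice were above all other mice, and the other 3 groups overlapped.

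Against LKO CD, Camkk2 in LKO HFD mice was 2.39 times as high in mean RPKM, with a log2 fold change of 0.78 (SE 0.125, limma adjusted p = 0.00833). By size of p this was the 9th of the 11090 genes tested in that comparison. Against FF HFD it was 2.12 times as high, with a log2 fold change of 0.69 (SE 0.118, limma adjusted p = 0.00241), the 66th of 11090. It was the only member whose groups did not overlap in either comparison, beside 9.04% and 4.67% of all genes. It passed the study's fold of 1.5 in both, as 1.27% and 2.07% of all genes did. Both calls held in all 10 other settings and without any 1 of the 18 mice (adjusted p up to 0.0416 and 0.0237).

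In FF mice the change of Camkk2 under HFD was 0.12 (SE 0.125, adjusted p = 0.544) with a 95% confidence interval from -0.14 to 0.38, and its sign turned with quantile normalization. Between LKO and FF under CD it was 0.03 (SE 0.132, adjusted p = 0.981) with an interval from -0.25 to 0.31. The difference between the genotypes in the response to HFD, tested as an interaction, was 0.66 (SE 0.177, limma adjusted p = 0.0498), which passed as the last of 329 genes (2.97% of those tested, 1.14% with a difference of this sign). That call was lost under 5 of 9 other settings (adjusted p over them 0.0191 to 0.110) and without any of 16 of the 18 mice, all but FF HFD mouse 1 and LKO HFD mouse 1 (adjusted p 0.0153 to 0.113). Camkk2 rests on 103 to 629 reads per mouse, and no annotated gene overlaps it.

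Macrophages also express Camkk2, so the markers of Kupffer cells and macrophages were read beside it. The 6 markers summed to 40.2 to 58.1 RPKM in FF CD, 33.5 to 54.6 in LKO CD, 48.6 to 91.9 in FF HFD and 46.8 to 91.4 in LKO HFD, and none was at 0 in any mouse. Between LKO and FF under HFD, where Camkk2 differed, 0 of 6 passed, beside 4.2% of all genes, and the ranges of the sum were nearly the same. The log2 fold changes of all 6 were below 0 there, from -0.24 to -0.02. Under HFD, 2 of 6 (Vsig4 and Adgre1) rose in FF mice, where Camkk2 did not pass, beside 15.8% of all genes. In LKO mice, where Camkk2 passed, 1 of 6 (Clec4f) rose, beside 3.44% of all genes. For HFD against CD, the log2 fold changes of all 6 markers were above 0 in both genotypes. They ran from 0.13 to 0.72 in FF mice and from 0.28 to 0.80 in LKO mice. Of the 6 stellate cell markers, Col1a1 and Col3a1, genes of fibrillar collagens, were lower in LKO than in FF mice under HFD, beside 4.2% of all genes that passed there. Of the 5 hepatocyte markers, 1, Apoa1, was higher there. Changes of the 5 ran from -0.26 to 0.64 with a median of 0.02. Where Camkk2 rose in LKO mice, the neutrophil marker S100a8 rose as well (0.91, adjusted p = 0.0406) and the hepatocyte marker Ttr fell (-0.40, adjusted p = 0.0284). Other markers moved beside the calls of Strada and Prkaa2 under HFD in FF mice. Of the 6 sinusoidal endothelial markers 4 rose, beside 15.8% of all genes, and their sum ran from 36.1 to 57.4 RPKM in FF HFD against 13.7 to 29.4 in FF CD. Col1a1 (1.16, adjusted p = 0.00539), Col3a1 (1.21, adjusted p = 0.00452) and the neutrophil marker S100a9 (0.77, adjusted p = 0.0133) rose too. Of the 5 hepatocyte markers, Cps1 (-1.24, adjusted p = 0.000157) and Apoa1 (-0.72, adjusted p = 0.00276) fell, beside 4.79% of all genes. The other hepatocyte markers, Ass1 (-0.32), Alb (0.22) and Ttr (0.11), did not pass and did not share a direction. The hepatocyte sum ran from 29912 to 37972 RPKM in FF CD and from 33655 to 42889 in FF HFD. None of the tested cholangiocyte and adipocyte markers passed in any comparison. The part of these cells in the levels of Strada, Prkaa2 and Camkk2 was not tested.

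**Figure D4:**
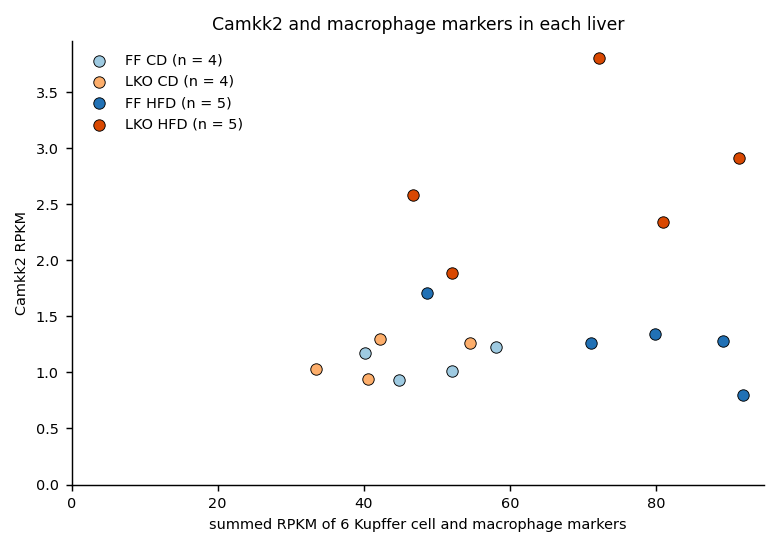
Camkk2 RPKM (vertical axis) against the summed RPKM of 6 Kupffer cell and macrophage markers (horizontal axis), with 1 point for each mouse coloured by group. FF HFD and LKO HFD mice cover nearly the same range of the marker sum, 48.6 to 91.9 and 46.8 to 91.4, while all LKO HFD mice are higher in Camkk2.

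The other members did not pass between LKO and FF mice under HFD. The largest differences were those of Stk11 at 0.20 (SE 0.094, adjusted p = 0.247, unadjusted p = 0.0446), which was at 13.5, 14.2, 13.6, 12.3 and 12.7 RPKM in LKO HFD, and Prkag2 at -0.19 (SE 0.113, adjusted p = 0.366). Prkag2 was at 7.91 and 8.10 RPKM in LKO HFD mice 1 and 2 and at 6.24, 5.41 and 4.41 RPKM in LKO HFD mice 3 to 5, the widest spread of any group for this gene. Without LKO HFD mouse 5 the difference was -0.09. Over the 8 members that did not pass, the 95% confidence intervals lay between -0.43 and 0.40.

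Prkab2 was not among the genes tested and was compared on its own by an exact permutation test of the mice, two-sided. It was at 0.278, 0.431, 0.391 and 0.416 RPKM in FF CD, at 0.462, 0.341, 0.218 and 0.302 in LKO CD, at 0.298, 0.423, 0.465, 0.406 and 0.447 in FF HFD and at 0.359, 0.378, 0.431, 0.352 and 0.297 in LKO HFD. All groups overlapped. Differences of the mean log2(RPKM + 1) were from -0.05 to 0.04 with exact p from 0.262 to 0.524 (0.524 in each after adjustment over the 4 comparisons). Its level rests on 25 to 62 reads per mouse.

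As a description over the 18 mice, the genes whose log2(RPKM + 1) was most like that of 3 members were listed, among 9730 genes with a mean of at least 1 RPKM. For Prkaa1 they were Cd163 (r = 0.83), Ric1 (0.80) and Nek7 (0.77). For Prkaa2 they were Fst (r = 0.86), Kat2b (0.84) and Arid2 (0.83). For Stk11 they were Imp3 (r = 0.94), Ccs (0.93) and Irf3 (0.92). Camkk2 was added after its values were seen, and it was most like Pknox1 (r = 0.96), Trim30d (0.94) and Ints7 (0.92). The points share libraries, groups and depth, so these values say nothing of shared function. Among the members, Prkag1 and Stk11 were the most alike (r = 0.75 over all mice and 0.82 within groups), followed by Cab39 and Camkk2 (0.57 and 0.68).

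The genes around AMPK were counted in 7 lists. The lists were chosen with earlier results of these data known, so their counts are a description and not independent evidence. They are to be read beside the shares of all genes that passed. Those shares were 20.6% under HFD in FF mice (15.8% rose and 4.79% fell), 4.05% under HFD in LKO mice and 4.2% between LKO and FF mice under HFD. Of 15 other upstream kinases, adaptors and receptors, all tested, Sesn2 (0.38, adjusted p = 0.0289), the gene of a stress-induced sestrin, rose and Lepr (-0.84, adjusted p = 0.0413), the leptin receptor, fell under HFD in FF mice, with a median over the list of 0.08 beside 0.07 for all genes. None passed in the other 3 pairwise comparisons. Among 13 genes of phosphatases that act on AMPK or are subunits of them, Ppp6r2 (0.32, adjusted p = 0.0045), a paralog of the targeted gene, and Ppm1b (0.23, adjusted p = 0.0470) rose in that comparison. Ppp1r3b (-0.72, adjusted p = 0.0467), which brings protein phosphatase 1 to glycogen, fell. None of the 13, which include the catalytic subunit Ppp6c, Ppp6r1 and the scaffold Ankrd28, passed between LKO and FF mice under either diet. The targeted gene Ppp6r3, which passed under both, is not in this list.

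LKB1 has other substrates than AMPK, and 1 of these, Nuak2, responded differently to HFD in the genotypes. Of the 12 kinases listed, 8 were tested and Nuak2, a kinase related to AMPK, passed. It ranged from 2.71 to 3.68 RPKM in FF CD, from 1.90 to 3.13 in FF HFD, from 1.60 to 2.47 in LKO CD and from 2.92 to 3.91 in LKO HFD. It fell under HFD in FF mice (-0.35, adjusted p = 0.0336) and rose in LKO mice (0.54, adjusted p = 0.0208), and was higher in LKO than in FF mice under HFD (0.45, adjusted p = 0.0232). Under CD the difference between LKO and FF mice was -0.44 (SE 0.119, limma adjusted p = 0.156), which did not pass. The interaction was 0.89 (SE 0.159, limma adjusted p = 0.00411) and held in every other setting and without any 1 mouse. The 3 pairwise calls were less stable. The fall in FF mice was lost without any of 6 mice and in 3 of 10 other settings (adjusted p with mice left out up to 0.119), the rise in LKO mice without any of 3 mice (up to 0.0769), and the difference between the genotypes without any of 5 mice and in 1 setting (up to 0.0724). The other 7 did not pass in any comparison. Brsk1 and Brsk2, kinases known from the brain, had under 3 reads in 2 and 15 of the 18 mice.

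Of 9 AMPK substrates in lipid metabolism, 3 rose and 2 fell under HFD in FF mice, which is 5 of 9 beside 20.6% of all genes. The largest changes were in Plin2 (1.89, adjusted p = 0.000178), a coat protein of lipid droplets, Srebf1 (-0.94, adjusted p = 0.0369), a transcription factor of lipid synthesis, and Lipe (0.71, adjusted p = 0.000971), the hormone-sensitive lipase. In LKO mice 2 rose, Srebf2 (0.71, adjusted p = 0.0197) and Lipe (0.65, adjusted p = 0.0181), and Gpam (-1.06, adjusted p = 0.0304), an enzyme of triglyceride synthesis, fell. None of the 9 passed between the genotypes under either diet.

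Of 12 substrates in growth, autophagy and mitochondria, Mtor (0.67, adjusted p = 0.00397) and Pik3c3 (0.37, adjusted p = 0.0195) rose under HFD in FF mice, and Ulk1 (-0.38, adjusted p = 0.0471) and 1 other fell, while none passed in the other 3 pairwise comparisons. Of 12 in carbohydrate metabolism and transcription, 2 rose and 2 fell in FF mice, which is 4 of 12 beside the same 20.6%. Pfkfb3 (-1.09, adjusted p = 0.000803), which makes the activator of glycolysis fructose 2,6-bisphosphate, fell, Txnip (0.98, adjusted p = 0.00165), an inhibitor of glucose uptake, rose, and Mlxipl (-0.67, adjusted p = 0.00366), the gene of the sugar-responsive factor ChREBP, fell. In LKO mice Pfkfb3 (-0.78, adjusted p = 0.0343) and Ppargc1a (-0.46, adjusted p = 0.0278) fell and Txnip (0.69, adjusted p = 0.0499) rose. The call of Txnip in LKO mice was lost without any of 14 mice and in 5 of 10 other settings. Mlxipl was higher in LKO than in FF mice under HFD (0.52, adjusted p = 0.0401), with an interaction of 0.81 (adjusted p = 0.0373), but the first call was lost without any of 8 of the 18 mice and in 7 of 10 other settings (adjusted p up to 0.113), and the interaction without any of 12 mice and in 4 of 9 other settings (up to 0.101).

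Of 10 enzymes of adenine nucleotides, the ligands of gamma, 7 were tested, and Ampd1, known from skeletal muscle, and Ak1 had under 3 reads in 18 and 4 of the 18 mice. Nt5e, which makes adenosine from extracellular AMP, ranged from 0.505 to 0.760 RPKM in FF CD, from 2.31 to 3.98 in FF HFD, from 0.860 to 1.40 in LKO CD and from 0.948 to 1.86 in LKO HFD. It rose under HFD in FF mice (1.32, adjusted p = 4.91e-06) and was lower in LKO than in FF mice under HFD (-0.78, adjusted p = 0.00151), with an interaction of -1.15 (SE 0.188, limma adjusted p = 0.00217) that held in every other setting and without any 1 mouse. Nt5c2, a cytosolic nucleotidase, had an interaction of -0.38 (adjusted p = 0.0467), lost without any of 14 mice and in 2 of 9 other settings. No gene of the 7 lists, which leave out the targeted gene Ppp6r3, passed between LKO and FF mice under CD. Of the 30 calls named from these lists, 11 held in every other setting and without any 1 mouse, and none reversed. The calls that held under HFD in FF mice were those of Ppp6r2, Plin2, Lipe, Mtor, Pfkfb3, Txnip, Mlxipl and Nt5e. Of the 7 calls named under HFD in LKO mice, 0 held in every other setting and without any 1 mouse.

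**Figure D5:**
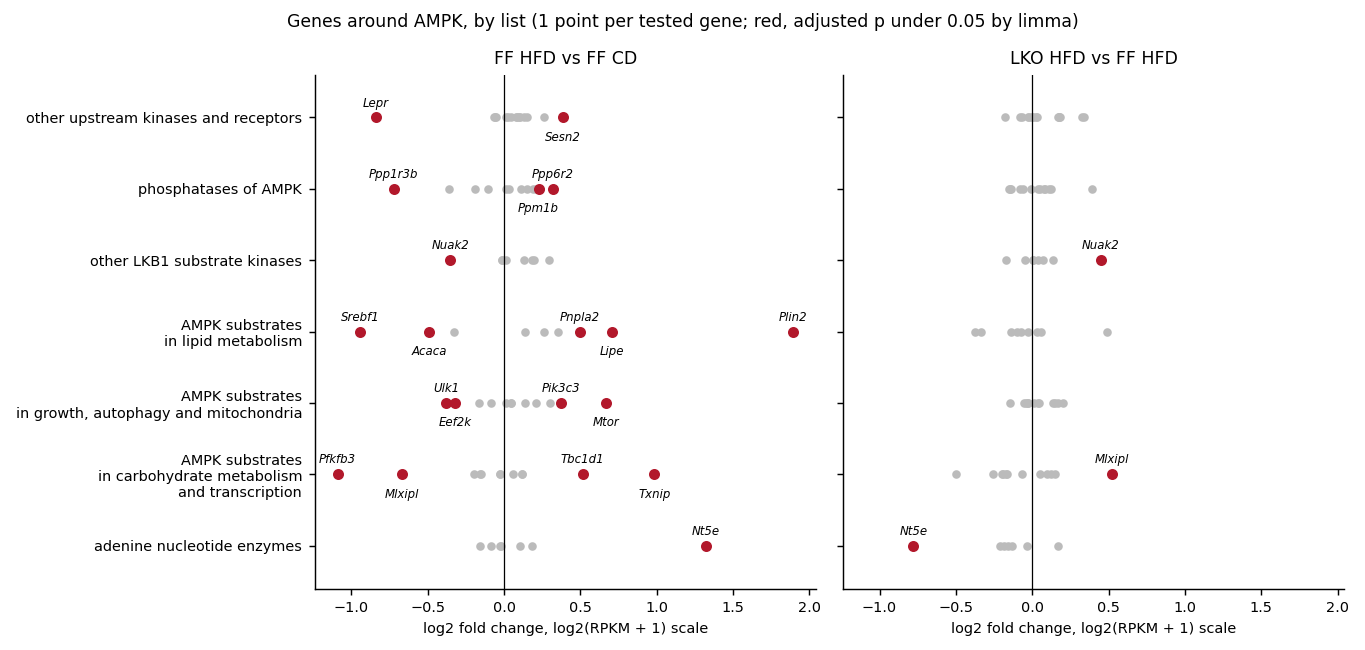
Log2 fold change on the log2(RPKM + 1) scale (horizontal axis) of each tested gene of the 7 lists (vertical axis), for HFD against CD in FF mice and for LKO against FF mice under HFD, with genes past the threshold in red and named. In the first comparison most lists hold calls in both directions, and in the second 3 genes are named, Nuak2, Mlxipl and Nt5e.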

How the data were processed

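The authors aligned reads of 18 liver libraries (HISAT2 2.0.4, mm10, per the labels) and deposited RPKM values per gene made with Partek. The annotation, strand and treatment of reads matching several genes are not given in the sources used here. Nothing names separate batches, and each library is 1 mouse.

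From the RPKM values, depth was recovered from single-exon genes through the steps between their values below 0.2 RPKM, and whole reads (within 0.05) for 8522 of the 11090 tested genes (76.8%). For 2491 others, Stk11 among them, reads were estimated from the GENCODE M21 exon length times 0.750, and 77 have no estimate. Precision follows from these reads and the spread between mice.

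limma 3.58.1 (R 4.3.3, trend, 1 coefficient per group, 2-sided, Benjamini-Hochberg) was fitted to log2(RPKM + 1) of genes whose mean in the 18 mice reached 0.5 RPKM. It was also run on simulated data with independent noise and the same spread in every group, which cannot vouch for single calls here. A call is an adjusted p under 0.05, and the study's fold threshold of 1.5 was added as an alternative. Prkab2 was compared by exact permutation. The members and all gene lists were chosen with earlier results of these data known, so their directions and counts are not independent evidence. Named are all members and, per list and comparison, up to 3 genes that passed with the largest change, plus listed genes under 3 reads. One gene of the lists is not reported here and is left out of their counts. Other settings tried were no filter, a stricter filter (mean of 1 RPKM), a pseudocount of 0.1, equal sums, quantile normalization, median centring, only the groups compared, no moderation, the replicate number as a block, voom on reads, and leaving out each mouse. Tables used Python 3.11.15, pandas 2.3.3, numpy 2.4.6, scipy 1.17.1 and matplotlib 3.10.9.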

Additional observations from a re-analysis of the deposited data

Results flagged for a closer look

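Cab39 was at 12.4 RPKM in FF CD mouse 4, below the other FF CD mice, which lay between 14.5 and 14.9 RPKM. The gap was 0.841 of the range of the group, past Dixon's limit for 4 samples. Over the 52 groups examined, chance alone flags about 1 in 20, so this 1 flag is no more than chance would give. Cab39 was also at 12.8 RPKM in LKO HFD mouse 5 and at 12.9 in FF HFD mouse 3.

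The change of Camkk2 under HFD differed between the genotypes by 0.66 on the log2(RPKM + 1) scale (interaction by limma, adjusted p = 0.0498), with all 5 LKO HFD mice above all LKO CD mice and the FF groups overlapping. That interaction call was lost without any of 16 of the 18 mice and in 5 of 9 other settings.

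Further genes of the surrounding lists were past the threshold for the interaction of diet and genotype (limma). The differences were 0.89 for Nuak2 (adjusted p = 0.00411), 0.81 for Mlxipl (adjusted p = 0.0373), -1.15 for Nt5e (adjusted p = 0.00217) and -0.38 for Nt5c2 (adjusted p = 0.0467), on the same scale. The calls of Nuak2 and Nt5e held in every other setting and without any 1 mouse. That of Mlxipl was lost without any of 12 mice and in 4 of 9 other settings. That of Nt5c2 was lost without any of 14 mice and in 2 of 9 other settings.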

How the results depend on the processing

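The calls of Camkk2 in LKO HFD mice, against LKO CD and against FF HFD, and of Strada in FF mice kept their direction and their side of the threshold in every setting that gave a value and without any 1 mouse; Strada was not tested with the stricter filter, since its mean was under 1 RPKM. The count of members passed in FF mice under HFD (2) was 1 without a filter, with the stricter filter, with equal sums, with only the groups compared and with the replicate number as a block, 0 with the fold of 1.5, 3 with median centring and with quantile normalization, where Stk11 also passed, and 1 to 2 with mice left out. The member lost was Prkaa2, except with the stricter filter, where Strada was not tested, and the fold of 1.5, where both were lost. That fold was taken on the log2(RPKM + 1) scale, while the ratio of mean RPKM of Strada was 1.84. In LKO mice it was 2 with median centring, where Prkaa2 also passed (adjusted p = 0.0498), and 1 to 2 with mice left out. For the interaction it was 0 with a pseudocount of 0.1, without a filter, without moderation, with the block and with voom, and 0 to 1 with mice left out. The change of Camkk2 in FF mice under HFD was -0.023 with quantile normalization, and that between LKO and FF under CD was -0.0023 with median centring and from -0.0070 to 0.074 with mice left out (below 0 without FF CD mouse 4 or LKO CD mouse 2). The causes of these changes were not tested.

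The differences of Prkab2 ran with mice left out from -0.0062 to 0.059 and from -0.0042 to 0.084 for HFD in FF and LKO mice, and from -0.10 to -0.01 and from -0.075 to -0.028 for LKO against FF under CD and HFD (exact p = 0.0476 at the lowest, without FF HFD mouse 1). Counted in reads rather than per length, the shares of Prkaa2, Prkab2 and Prkag2 were 83.1%, 8.37% and 52.3%, so that by reads Prkag2 and not Prkag1 is the larger gamma isoform. The sources do not say whether a replicate number pairs mice. Over 25 pairs with the same number the median correlation of deviations was 0.054, and 10 were over 0.1. Over 96 other pairs the median was -0.012, and 26 were over 0.1. These correlations cannot decide whether the numbers pair mice. Genes passed in LKO mice under HFD were 449, against 727 with the replicate block, 172 without a filter, 252 with quantile normalization, 276 with median centring, 238 without moderation and 69 with only the groups compared. LKO against FF gave 26 under CD, against 15 without a filter and 7 without moderation, and 466 under HFD, against 224 with only the groups compared and 300 without moderation. The interaction gave 329, against 554 with equal sums. With mice left out these counts ran from 27 to 666 in LKO mice under HFD (27 without LKO CD mouse 3), from 11 to 52 for LKO against FF under CD (the lowest when FF CD mouse 2 was left out and the highest when LKO CD mouse 3 was), from 201 to 722 under HFD (201 without FF HFD mouse 2, 722 without LKO HFD mouse 1) and from 164 to 479 for the interaction (164 without FF CD mouse 3), and the 2287 genes in FF mice under HFD ran from 1483 (without FF CD mouse 3) to 2380. Prkab2 and Strada have the fewest reads of the members, at most 62 and 102 in any mouse.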
